A study of Brachypodium distachyon with 6 samples.

Results

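The genes described here are the exclusive and preferred targets of *BdMUTE* and *BdFAMA*, as the study listed them from a single-cell gene regulatory network of dividing guard mother cells of the wild grass *Brachypodium distachyon*. An exclusive target was linked to one of the 2 factors only, and a preferred target was linked to both, with a stronger co-expression weight for one of them. The study's target table held 82 distinct gene IDs, of which 1, *BdMUTE* itself, was left out as a named gene and regulator. Of the 81 IDs kept, 79 were found among the 36647 genes of the count table, comprising 51 *BdMUTE* targets (13 exclusive and 38 preferred) and 28 *BdFAMA* targets (5 exclusive and 23 preferred). The remaining 2 IDs, both *BdFAMA* preferred (BdiBd21-3.1G0131366 and BdiBd21-3.1G0234801), were not found in the count table and were not analysed here. The study built the list from single cells, and the rule that picks its members uses no value of the bulk libraries described below, although the list was taken up here with earlier results of those libraries known. Targets shared by the 2 factors without a preference were not used.

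Bulk poly-A RNA-seq was used to compare leaf developmental zones, the growing base of young leaves, that had been digested to protoplasts with zones that had not. All plants were soil-grown, 3-week-old wild type of the line Bd21-3. Libraries labelled protoplasted (n = 3) came from 10 pooled leaf zones each, treated with the cell wall enzymes Cellulase Onozuka RS and Macerozyme R10, and libraries labelled non-protoplasted (n = 3) came from 5 pooled leaf zones each without digestion. The groups follow the sample titles and library names. In each of the 6 samples the label's treatment entry instead gives the opposite group, and if that entry were right, every direction given here would be exchanged. The number of zones per library went with the group, so that its part cannot be told apart from that of the digestion.

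BdMUTE and BdFAMA are basic helix-loop-helix (bHLH) transcription factors of the stomatal lineage. In grasses, MUTE acts in the guard mother cell and moves into the neighbouring cells, where it is needed to recruit the subsidiary cells that flank the guard cells, and it also orients the division of the guard mother cell. FAMA acts later and is needed for the guard cells to differentiate. Both are thought to act together with the bHLH proteins ICE1 and SCRM2, and SPCH1 and SPCH2 start the lineage. The study's network gave both factors the same binding motif, the bHLH motif CANNTG.

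Protoplasted libraries held 23021800 to 24621927 counts each and non-protoplasted libraries 17482438 to 24045979, and 23677 genes passed the filter on low counts. Levels are given as CPM, the read count of a gene scaled to the normalized library size, and log2 fold changes are for protoplasted over non-protoplasted. Genes were called higher or lower by edgeR's quasi-likelihood test, at a Benjamini-Hochberg adjusted p below 0.05 across the whole table. The mesophyll marker *BdLHCA6*, a light-harvesting protein gene, stood at 54.5, 50.8 and 58.8 CPM in the libraries labelled protoplasted and at 27.1, 30.4 and 28.8 CPM in those labelled non-protoplasted. The meristem markers *BdKN1* and *BdKNAT1-like* had 0 counts in all 6 libraries, and *BdWOX4* stayed under 1 CPM in each of them. The summed level of 3 epidermis markers was 231 to 327 CPM in the libraries labelled protoplasted and 52.4 to 66.8 CPM in those labelled non-protoplasted, with 2 of the 3 called higher. *BdPDF1* alone held 228, 157 and 192 CPM of it in the libraries labelled protoplasted. The summed level of 6 vasculature markers was 230 to 243 CPM in the libraries labelled protoplasted, against 80.1 to 84.8 CPM in those labelled non-protoplasted (4 higher, 1 lower). Most of it was *BdXCP1-like*, with 204, 208 and 195 CPM in protoplasted and 69.4, 66.6 and 68.9 CPM in non-protoplasted libraries. The guard cell markers *BdMYB60-like* and *BdSCAP1-like* were both called higher, and their sum was 10.4 to 12.9 CPM in the libraries labelled protoplasted and 3.82 to 4.45 CPM in those labelled non-protoplasted. *BdSLAH2*, which had been listed with them here but which the study plots with the meristem and early vasculature markers, was called lower, with 0.649, 0.283 and 0.185 CPM in the libraries labelled protoplasted and 40.9, 36.9 and 40.2 CPM in those labelled non-protoplasted. The sum over all 3 genes listed went the other way, with 10.7 to 13.6 CPM in the libraries labelled protoplasted and 41.2 to 44.7 CPM in those labelled non-protoplasted. The subsidiary cell markers *BdCST1*, which was too low to be tested, and DUF567, which was called higher, summed to 1.22 to 1.68 CPM in the libraries labelled protoplasted and 0.614 to 0.804 CPM in those labelled non-protoplasted. The part of these cell types in the results below was not tested, and in bulk samples fewer cells of a type cannot be told apart from less RNA per cell.

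The targets as a whole leaned towards higher levels in the libraries labelled protoplasted. Of 78 targets tested, 47 were called higher (60.3%) and 16 lower (20.5%), whereas 15 were not called. Over all genes tested, 38.7% were called higher and 38.3% lower. Among called targets 74.6% were higher, against 50.2% of all called genes. The median log2 fold change of the targets was 0.68 (quartiles -0.25 and 1.30), against 0.04 for all genes tested (quartiles -1.27 and 1.03). The shares over all genes were nearly the same for genes with a mean of at least 1 CPM, with 39.7% higher and 38.6% lower. The libraries of the 2 groups did not overlap for 47 targets that were higher and 19 that were lower in those labelled protoplasted, where all genes gave 40.4% and 40.1%. These shares depended on the scaling. With library size as the only scaling, the all-gene median moved to 0.42, 48.6% of all genes were called higher and 30.8% lower, and the targets split into 53 higher and 10 lower. Of the 63 calls, 57 were then kept and 6 were lost, all of them lower calls, and 2 of these turned, BdiBd21-3.1G0044700 (-0.30 as reported, 0.088 with library size only) and BdiBd21-3.1G0175200 (-0.33 and 0.053).

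Few of the targets had large changes. Only 3 targets exceeded a log2 fold change of 3 and 1 fell under -3, together 5.13% of the targets tested, against 17.7% of all genes tested (5.09% above 3 and 12.6% below -3). A change of at least 2-fold in either direction was seen for 37 targets (47.4%), against 54.3% of all genes (25.5% above 1 and 28.7% below -1 on the log2 scale). The median size of the change regardless of its sign was 0.87 for the targets and 1.12 for all genes on the log2 scale. No test was made of these shares.

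**Figure D1:**
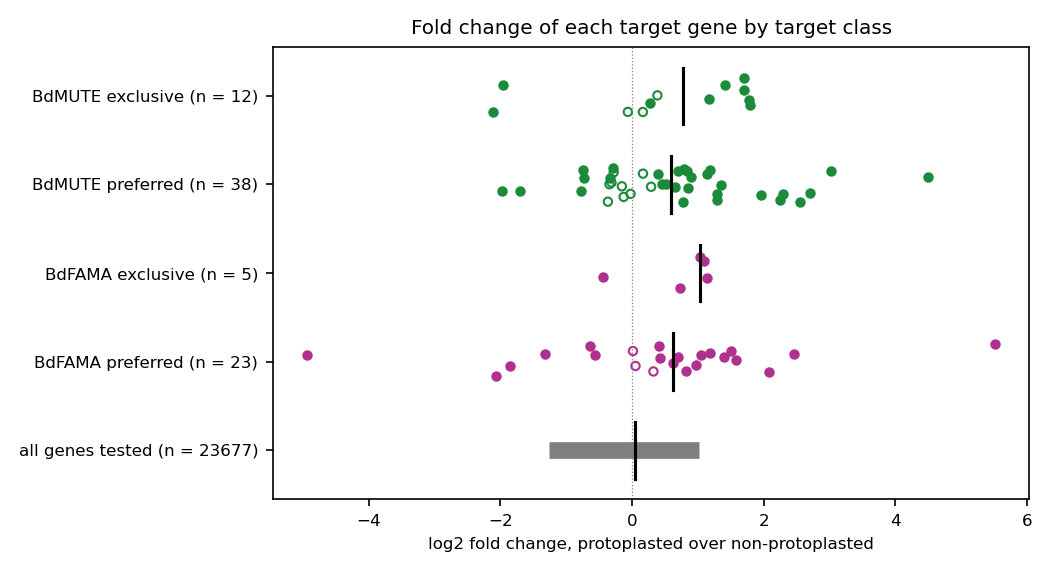
Log2 fold change, protoplasted over non-protoplasted, of each target tested, by target class (filled points, called at an adjusted p under 0.05; open points, not called; black lines, class medians), with the quartile range of all genes tested as a grey bar. Class medians lie between 0.59 and 1.03, against 0.04 for all genes tested, and single targets reach -4.94 and 5.52.

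The *BdMUTE* and *BdFAMA* targets had medians of the same sign and similar size, and the difference between them was not tested. Of the 50 *BdMUTE* targets tested, 29 were called higher (58.0%) and 9 lower (18.0%), with a median log2 fold change of 0.59 (quartiles -0.25 and 1.34). Of the 28 *BdFAMA* targets, 18 were called higher (64.3%) and 7 lower (25.0%), with a median of 0.71 (quartiles -0.10 and 1.16). With library size as the only scaling, the *BdFAMA* targets split into 21 higher and 4 lower. Relative to the median of all genes, the *BdMUTE* median stood 0.54 and the *BdFAMA* median 0.67 above it. Within the *BdMUTE* targets, exclusive and preferred members had medians of 0.78 (7 of 12 tested called higher, 2 lower) and 0.59 (22 of 38 higher, 7 lower). Within the *BdFAMA* targets, the medians were 1.03 for exclusive members (4 of 5 higher, 1 lower) and 0.62 for preferred members (14 of 23 higher, 6 lower).

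**Figure D2:**
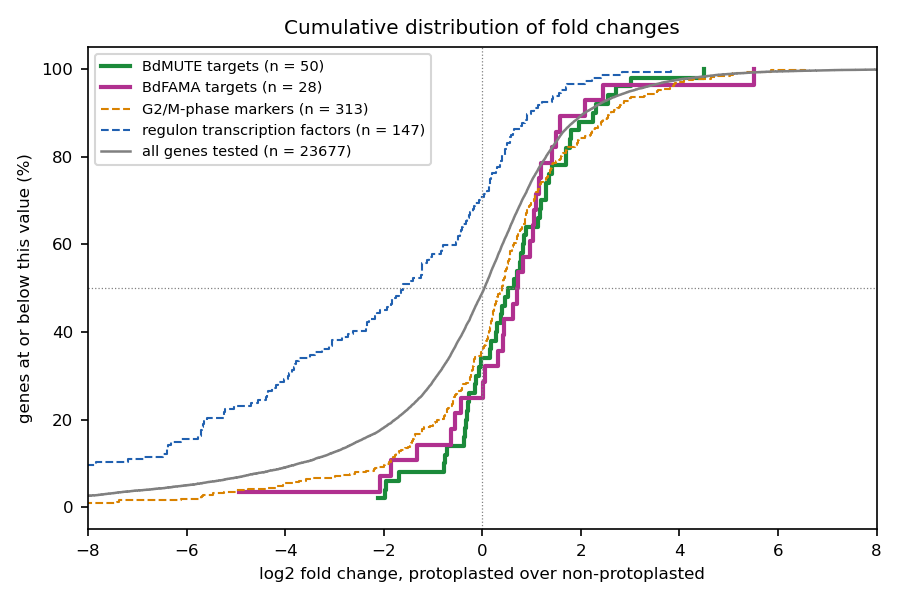
Cumulative share of genes (%) against the log2 fold change, protoplasted over non-protoplasted, for the *BdMUTE* and *BdFAMA* targets, the study's G2/M-phase markers, the transcription factors of its regulons and all genes tested. The study states that it filtered its G2/M-phase markers to transcription factors. The 2 target curves run close together to the right of the all-gene curve at the 50% line, and the regulon transcription factors lie to its left with a median of -1.61.

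The targets were set beside other lists from the same atlas. The part of the study's mesophyll marker list at hand had values close to those of the targets, with 1145 of 1967 genes called higher (58.2%) and 502 lower (25.5%) and a median log2 fold change of 0.57, and 18 of the targets were on it. The study states that it filtered its G2/M-phase markers to transcription factors raised in that phase. Of these, 156 of 313 were called higher (49.8%) and 85 lower (27.2%), with a median log2 fold change of 0.41. This list shares members with the regulon list given next, among them *BdMUTE*. The 147 transcription factors that head the regulons of the network had 32 called higher (21.8%) and 93 lower (63.3%), with a median of -1.61. The target genes thus had a median of the opposite sign to that of the list of regulators from the same network. The differences between the lists were not tested.

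The levels per gene length, as the deposited TPM, had a higher median for *BdFAMA* targets than for *BdMUTE* targets, a difference between gene lists that was not tested. The median *BdMUTE* target had 13.2, 10.8 and 11.2 TPM in the libraries labelled protoplasted and 5.94, 7.71 and 7.06 TPM in those labelled non-protoplasted. The median *BdFAMA* target had 42.0, 35.1 and 37.3 TPM in the libraries labelled protoplasted and 21.3, 21.2 and 23.1 TPM in those labelled non-protoplasted. In both target groups every library labelled protoplasted had a higher median than every library labelled non-protoplasted. In each library the *BdFAMA* median was above the *BdMUTE* median. All genes also leaned upwards in TPM, so that part of this difference is shared with the whole table. On log2(TPM + 0.1), the all-gene median log2 fold change was 0.31, with 45.5% of genes called higher and 32.2% lower. The medians of the *BdMUTE* and *BdFAMA* targets were 0.88 and 0.99 on that scale. Mean TPM over the 6 libraries ran from 0.138 to 1357 among *BdMUTE* targets and from 7.91 to 408 among *BdFAMA* targets. All 28 *BdFAMA* targets passed the filter on low counts, and 1 of the 51 *BdMUTE* targets, the exclusive target BdiBd21-3.2G0269500, did not, with protoplasted libraries at 3, 6 and 11 counts and non-protoplasted libraries at 2, 9 and 4.

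The summed level differed less between the groups than the median did. The sums are in TPM, in which the median gene of the whole table was also higher, by 0.31 on log2(TPM + 0.1). Summed TPM of the *BdFAMA* targets was 2393 ± 72.2 in the libraries labelled protoplasted and 2001 ± 20.0 in those labelled non-protoplasted (SD, n = 3 each), without overlap. In these sums BdiBd21-3.1G0108500, which went the other way, held 31.7 TPM in the libraries labelled protoplasted and 785 TPM in those labelled non-protoplasted. Without it, a step chosen after its values were seen, the sums were 2362 ± 73.2 TPM in the libraries labelled protoplasted and 1216 ± 10.3 TPM in those labelled non-protoplasted (SD, n = 3 each). Summed TPM of the *BdMUTE* targets was 4736 ± 560 in the libraries labelled protoplasted and 4243 ± 168 in those labelled non-protoplasted (SD, n = 3 each). These ranges overlapped, as protoplasted replicate 2 had 4226 TPM and non-protoplasted replicates 1 and 2 had 4350 and 4329 TPM.

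**Figure D3:**
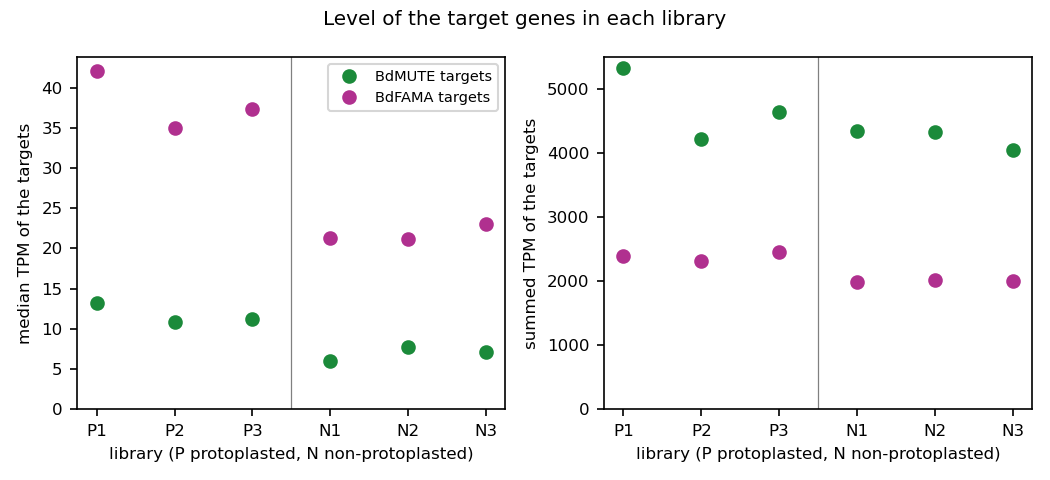
Median (left) and summed (right) deposited TPM of the 51 *BdMUTE* and 28 *BdFAMA* targets in each library, with protoplasted libraries (P) left of non-protoplasted libraries (N). The medians separate the groups for both factors, whereas the summed TPM of the *BdMUTE* targets overlaps between the groups. All genes tested also leaned upwards in TPM, with a median log2 fold change of 0.31 on log2(TPM + 0.1).

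The factors themselves were low in these bulk libraries and higher in those labelled protoplasted. *BdMUTE* (BdiBd21-3.1G0240400) had 3.67, 1.52 and 2.41 CPM (96, 43 and 65 counts) in the libraries labelled protoplasted, against 0.136, 0.231 and 0.142 CPM (2, 5 and 3 counts) in those labelled non-protoplasted. The groups did not overlap, and the log2 fold change was 3.82 ± 0.48 (SE, edgeR adjusted p = 5.51e-05). *BdFAMA* (BdiBd21-3.2G0300000) had 8.44, 7.01 and 6.70 CPM in the libraries labelled protoplasted and 4.98, 3.15 and 3.78 CPM in those labelled non-protoplasted, again without overlap, with a log2 fold change of 0.91 ± 0.21 (SE, edgeR adjusted p = 0.00329). Of the 6 stomatal bHLH genes, 5 were called higher and 0 lower, where all genes tested gave 38.7% higher and 38.3% lower. Protoplasted libraries held 53, 45 and 51 counts of *BdSPCH1* and non-protoplasted libraries 0, 0 and 1, and for *BdSPCH2* there were 28, 36 and 32 counts in protoplasted and 0, 3 and 2 in non-protoplasted libraries. *BdICE1*, at 154, 125 and 129 CPM in the libraries labelled protoplasted and 26.3, 32.6 and 27.6 CPM in those labelled non-protoplasted, had a log2 fold change of 2.23. *BdSCRM2* was not called (log2 fold change -0.30, edgeR adjusted p = 0.0648), with groups that overlapped. All 6 had been chosen with earlier results of these data known.

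Single targets are given by their ID, because the deposited files and the tables at hand pair the IDs with no gene names or functions. Those named had the largest changes in their class among called members whose groups did not overlap, or the highest level in it. Also named were 6 targets with an ID of the older Bradi series. That ID was taken from the study's list of differentially expressed genes of these same libraries. Having it may therefore depend on the values tested here, and the calls of these targets are no result about them as a set.

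Among the *BdMUTE* exclusive targets, 7 of 12 tested were called higher and 2 lower. BdiBd21-3.3G0232000 had 13.0, 16.3 and 13.7 CPM in the libraries labelled protoplasted and 3.27, 5.18 and 3.83 CPM in those labelled non-protoplasted (log2 fold change 1.80 ± 0.20 SE, edgeR adjusted p = 2.54e-05). BdiBd21-3.1G0258500 had 39.5, 32.1 and 30.6 CPM in the libraries labelled protoplasted and 7.71, 13.2 and 8.80 CPM in those labelled non-protoplasted (1.77 ± 0.21 SE, edgeR adjusted p = 3.53e-05). In both genes the lowest protoplasted library was above the highest non-protoplasted one. In the other direction, BdiBd21-3.1G0225800 had 9.74, 7.90 and 7.92 CPM in the libraries labelled protoplasted and 34.8, 36.3 and 38.9 CPM in those labelled non-protoplasted (-2.11 ± 0.13 SE, edgeR adjusted p = 5.83e-07). BdiBd21-3.1G0059700 had 19.5, 17.0 and 17.7 CPM in the libraries labelled protoplasted and 70.0, 74.6 and 65.8 CPM in those labelled non-protoplasted (-1.96 ± 0.12 SE, edgeR adjusted p = 3.66e-07). These 2 were the only lower calls of the class, and in each the highest protoplasted library stood far below the lowest non-protoplasted one. The class thus held few intermediate changes, since 4 further members were higher with log2 fold changes of 1.17 to 1.70 and the 3 members not called lay between -0.06 and 0.39.

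The *BdMUTE* exclusive target with the highest mean TPM, BdiBd21-3.1G0080500 (231 TPM over the 6 libraries), changed little. It had 61.6, 53.5 and 59.9 CPM in the libraries labelled protoplasted and 48.9, 50.2 and 45.8 CPM in those labelled non-protoplasted, with a log2 fold change of 0.27 ± 0.11 (SE, edgeR adjusted p = 0.0448). Its groups did not overlap, but the call was lost when any library other than protoplasted replicate 2 was left out, with adjusted p of 0.0549 to 0.216. It was also lost with at least 10 counts in every library (adjusted p = 0.0605), under the replicate block (0.0695), under RLE normalization (0.130) and in DESeq2 (0.136).

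Among the *BdMUTE* preferred targets, 22 of 38 were called higher and 7 lower. BdiBd21-3.2G0069800 had 14.6, 11.1 and 10.1 CPM in the libraries labelled protoplasted and 0.546, 0.694 and 0.331 CPM (8, 15 and 7 counts) in those labelled non-protoplasted, a log2 fold change of 4.50 ± 0.29 (SE, edgeR adjusted p = 6.23e-07), or 22.6-fold. BdiBd21-3.1G0151100 had 5.69, 6.59 and 3.74 CPM in the libraries labelled protoplasted and 0.477, 0.740 and 0.709 CPM (7, 16 and 15 counts) in those labelled non-protoplasted, 8.09-fold or 3.02 ± 0.31 on the log2 scale (SE, edgeR adjusted p = 1.50e-05). Both genes had few counts in the libraries labelled non-protoplasted, and the groups did not overlap. Among the lower calls, BdiBd21-3.1G0284300 had 42.9, 35.6 and 46.6 CPM in the libraries labelled protoplasted and 168, 163 and 163 CPM in those labelled non-protoplasted (-1.98 ± 0.13 SE, edgeR adjusted p = 8.11e-07). BdiBd21-3.2G0054500 had 80.5, 57.2 and 75.6 CPM in the libraries labelled protoplasted and 277, 227 and 187 CPM in those labelled non-protoplasted (-1.70 ± 0.19 SE, edgeR adjusted p = 2.38e-05). The groups did not overlap in either gene, and the non-protoplasted libraries varied more in the second of them.

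The *BdMUTE* preferred target with the highest level of all targets, BdiBd21-3.1G0120400, had 1546, 1172 and 1330 TPM in the libraries labelled protoplasted and 1392, 1412 and 1294 TPM in those labelled non-protoplasted. In TPM its groups overlapped. In CPM they did not, at 393, 316 and 360 CPM in protoplasted and 477, 442 and 406 CPM in non-protoplasted libraries, but the gene was not called (log2 fold change -0.31 ± 0.14 SE, edgeR adjusted p = 0.0664). It was called lower in 5 alternatives, without protoplasted replicate 1 (adjusted p = 0.0184), in DESeq2 (0.0296), under RLE normalization (0.0399), in limma-voom (0.0430) and with at least 10 counts in every library (0.0490). Its direction turned with library size as the only scaling (0.072, adjusted p = 0.641). BdiBd21-3.1G0108900 (Bradi1g07900) had 3.25, 1.88 and 2.04 CPM in the libraries labelled protoplasted and 5.32, 3.10 and 3.50 CPM in those labelled non-protoplasted, with groups that overlapped and a log2 fold change of -0.72 ± 0.30 (SE, edgeR adjusted p = 0.0482). That call also depended on the scaling, with log2 fold changes of -0.34 with library size only (adjusted p = 0.301), -0.45 on log2(TPM + 0.1) (0.161) and -0.41 on log2(TPM + 1) (0.152), and on the filter, with an adjusted p of 0.0523 for all genes with at least 1 count. It was lost without non-protoplasted replicate 1 (adjusted p = 0.180) or 3 (0.0660), and without protoplasted replicate 2 (0.143) or 3 (0.135). The further 20 higher members of the class had log2 fold changes of 0.39 to 2.70, the further 4 lower members -0.77 to -0.30, and the 9 members not called -0.37 to 0.29.

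All 5 *BdFAMA* exclusive targets were called, 4 higher and 1 lower, and none of the 5 had overlapping groups. Most genes of the whole table were called too, 38.7% higher and 38.3% lower. Their groups did not overlap for 40.4% that were higher and 40.1% that were lower. BdiBd21-3.1G0151500 had 31.7, 46.0 and 48.3 CPM in the libraries labelled protoplasted and 18.2, 22.0 and 16.7 CPM in those labelled non-protoplasted (1.15 ± 0.18 SE, edgeR adjusted p = 0.000280). BdiBd21-3.1G0050800 had 53.4, 59.3 and 66.4 CPM in the libraries labelled protoplasted and 26.6, 29.8 and 27.1 CPM in those labelled non-protoplasted (2.14-fold higher, edgeR adjusted p = 2.66e-05). The other 2 higher members, BdiBd21-3.1G0260200 and BdiBd21-3.1G0011600, had log2 fold changes of 1.03 and 0.73, so that the 4 genes covered a narrow range from 0.73 to 1.15. The lower member, BdiBd21-3.2G0274200, also had the highest mean TPM of the class, with 206, 275 and 271 CPM in the libraries labelled protoplasted and 355, 313 and 351 CPM in those labelled non-protoplasted (-0.44 ± 0.15 SE, edgeR adjusted p = 0.0238). Its call was lost without non-protoplasted replicate 1 (adjusted p = 0.0595) or 3 (0.0720), and its change shrank to -0.05 (adjusted p = 0.762) with library size as the only scaling. Protoplasted replicate 1 was the lowest library of its group in all 5 of these genes, and in 42.7% of all genes tested.

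The *BdFAMA* preferred targets held the largest changes of the whole list in both directions. BdiBd21-3.3G0068300 (Bradi3g05280) had 32.2, 23.7 and 26.8 CPM in the libraries labelled protoplasted and 0.818, 0.740 and 0.284 CPM (12, 16 and 6 counts) in those labelled non-protoplasted, 45.8-fold higher or 5.52 ± 0.29 on the log2 scale (SE, edgeR adjusted p = 1.57e-07). BdiBd21-3.1G0108500, the *BdFAMA* target with the highest mean TPM over the 6 libraries, had 42.5, 21.5 and 20.8 CPM in the libraries labelled protoplasted and 902, 847 and 846 CPM in those labelled non-protoplasted, 30.6-fold lower or -4.94 ± 0.30 (SE, edgeR adjusted p = 4.42e-07). In the second gene protoplasted replicate 1 stood well above replicates 2 and 3 of its group, and all 3 were far below every non-protoplasted library. BdiBd21-3.3G0131400 had 231, 189 and 192 CPM in the libraries labelled protoplasted and 40.4, 39.3 and 31.7 CPM in those labelled non-protoplasted (2.46 ± 0.15 SE, edgeR adjusted p = 4.44e-07). BdiBd21-3.1G0298600 had 1.72, 0.992 and 1.22 CPM in the libraries labelled protoplasted and 5.66, 5.51 and 5.34 CPM in those labelled non-protoplasted (-2.07 ± 0.24 SE, edgeR adjusted p = 3.64e-05). The groups were apart in all 4 genes.

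**Figure D4:**
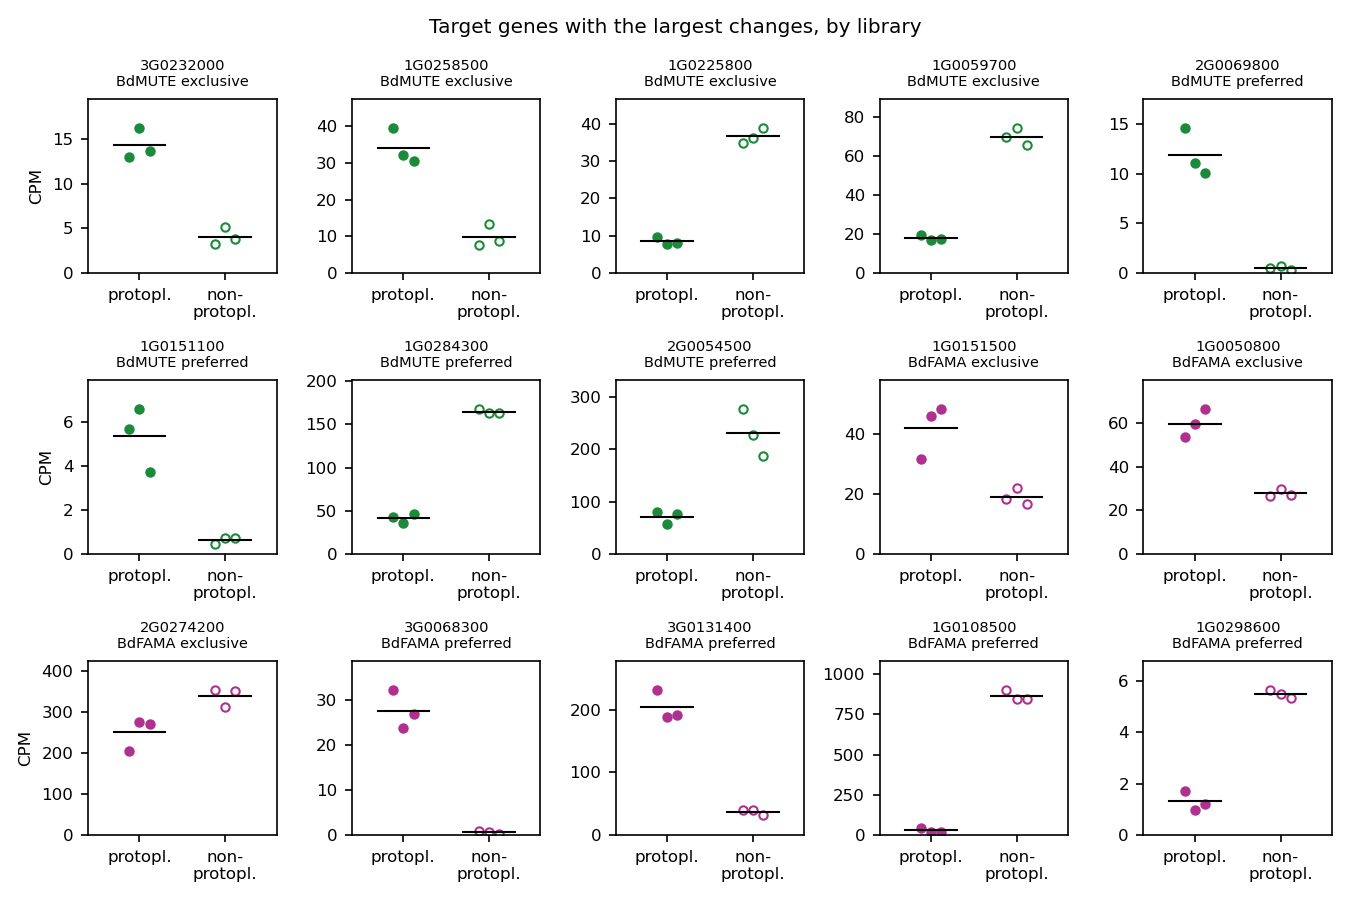
Level in CPM (linear axes starting at 0, each with its own range) of the 15 targets with the largest called changes in their class (titles leave off the prefix BdiBd21-3), by library, with protoplasted libraries (filled points) left of non-protoplasted libraries (open points) and black lines at the group means. The genes were picked among those whose groups do not overlap, with the largest change in BdiBd21-3.3G0068300 (5.52 on the log2 scale) and the smallest in BdiBd21-3.2G0274200 (-0.44).

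A further 4 *BdFAMA* preferred targets with a Bradi ID, which may itself depend on these libraries, were all called higher. Over all genes tested, 38.7% were called higher. BdiBd21-3.2G0134700 (Bradi2g10220) had 163, 259 and 283 CPM in the libraries labelled protoplasted and 57.3, 57.8 and 52.4 CPM in those labelled non-protoplasted (2.07 ± 0.20 SE, edgeR adjusted p = 1.04e-05), and it was lowest in protoplasted replicate 1 within its group. BdiBd21-3.1G0305800 (Bradi1g23410) had 25.4, 35.5 and 35.1 CPM in the libraries labelled protoplasted and 17.1, 14.3 and 15.0 CPM in those labelled non-protoplasted (1.05 ± 0.16 SE, edgeR adjusted p = 0.000203). Both genes had groups that did not overlap, and so did the next 2. BdiBd21-3.1G0065600 (Bradi1g05020) had 4.32, 6.34 and 6.33 CPM in the libraries labelled protoplasted and 3.82, 3.19 and 2.65 CPM in those labelled non-protoplasted (0.82 ± 0.23 SE, edgeR adjusted p = 0.00889), a call lost without non-protoplasted replicate 3 (adjusted p = 0.0535). BdiBd21-3.1G0185900 (Bradi1g13950) had 23.6, 28.6 and 30.6 CPM in the libraries labelled protoplasted and 15.5, 19.2 and 16.1 CPM in those labelled non-protoplasted (0.70 ± 0.14 SE, edgeR adjusted p = 0.00155). Apart from the genes named and BdiBd21-3.2G0267900, described next, 7 members of the class were higher with log2 fold changes of 0.42 to 1.58, 4 were lower with -1.85 to -0.56, and 3 were not called, between 0.01 and 0.33.

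The targets were also looked up in the study's lists of cell type and cell cycle markers. The study states that it filtered its G2/M-phase markers to transcription factors, so that a target of another kind could not be on that list. The overlap therefore does not show how many targets are genes of dividing cells. Only 1 target, the *BdFAMA* preferred BdiBd21-3.2G0267900, was among the G2/M-phase markers, with 24.2, 24.5 and 26.7 CPM in the libraries labelled protoplasted and 18.6, 19.7 and 17.7 CPM in those labelled non-protoplasted. It was called higher without overlap between the groups (0.43 ± 0.12 SE, edgeR adjusted p = 0.00686). The lists of mesophyll and silica cell markers were at hand in part only, so that a target missing from them may still belong there. Of the 51 *BdMUTE* targets 17 were in the mesophyll list, against 1 of the 28 *BdFAMA* targets. The part of that list at hand held 1969 of the 36647 genes of the count table. Its IDs were taken without a filter on the direction of the marker change, and the overlap was not tested. The silica cell list held 6 *BdMUTE* and 4 *BdFAMA* targets. The 17 *BdMUTE* targets listed for mesophyll were called higher in 8 cases and lower in 5, with a median log2 fold change of 0.17 and a median of 37.6 TPM. The 33 other *BdMUTE* targets tested were called higher in 21 cases and lower in 4, with a median of 0.85, and the median level of all 34 was 7.17 TPM. The 17 genes carried most of the summed TPM of the *BdMUTE* targets, 4288 of 4736 in the libraries labelled protoplasted and 3943 of 4243 in those labelled non-protoplasted.

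The targets were not spread evenly over the genome as far as their IDs show, which carry the chromosome number and count upwards along it. All 79 lay on chromosomes 1 (45 genes), 2 (23) and 3 (11), and none on chromosomes 4 or 5, which hold 6295 and 3671 genes with such an ID. On chromosome 1, 30 were *BdMUTE* and 15 *BdFAMA* targets, on chromosome 2 there were 13 and 10, and on chromosome 3 there were 8 and 3. On each of these chromosomes the targets ended within the first part of the IDs. Up to the last target lay 29.0% of the genes of chromosome 1, 34.3% of chromosome 2 and 28.8% of chromosome 3, which together are 8147 genes or 22.2% of the 36632 genes with such an ID. The regulon transcription factors also lay on chromosomes 1 to 3 only, but 91 of 147 (61.9%) had IDs past the last target of their chromosome. The target list, with 82 distinct IDs, was whole by the study's own counts of exclusive and preferred targets. Whether the regulon list, or the inputs behind the target list, cover all IDs was not tested. These positions may thus be a feature of those lists and not of the target genes. Within the stretches that held the targets, 39.7% of genes tested were called higher and 38.2% lower, so that the stretches were like the whole genome in this respect. Directly neighbouring IDs occurred in 1 pair, the *BdFAMA* preferred BdiBd21-3.1G0108500 (log2 fold change -4.94) and the *BdMUTE* preferred BdiBd21-3.1G0108600. The second gene of the pair had 97.1, 131 and 140 CPM in the libraries labelled protoplasted and 42.3, 56.3 and 45.6 CPM in those labelled non-protoplasted (1.35 ± 0.17 SE, edgeR adjusted p = 6.14e-05), the opposite direction to its neighbour.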

How the data were processed

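Reads were quality-checked (FastQC) and aligned (Bowtie2) by the authors against the Bd21-3 genome. The authors deposited raw counts per gene, a signal in reads per kilobase (count divided by gene length) and TPM (that signal scaled to an equal sum per library). The libraries were made with a directional kit. The counting mode and the use of strand are not given in the sources used here, so that reads of overlapping genes and near-identical copies could be lost or exchanged. The authors' mean TPM columns were not used, and 0 columns of single libraries were left unused.

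Counts were tested in R 4.3.3 with edgeR 4.0.16 (filterByExpr by group at a minimum count of 10, TMM, glmQLFit and glmQLFTest, Benjamini-Hochberg adjustment over 23677 genes, threshold 0.05, prior count 0.125). Standard errors are approximate, taken from the log2 fold change and the root of its F statistic. The test was checked on simulated counts in which 200 genes were changed. In that check edgeR recovered 77 of 103 genes at a log2 fold change of 1 and 96 of 97 at 2, and 11 unchanged genes were called. With so few changed genes, the check does not cover how the scaling behaves when most genes change. The replicates are separate libraries, and chi-square per degree of freedom between replicates was 6.92 to 46.2, above sampling noise. At this depth 3 counts equal 0.106 to 0.205 CPM, and with 3 against 3 libraries an exact permutation test cannot go below 0.10, so none was used.

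Members were matched by ID as written. The single-cell data of the study used a later annotation version than the bulk counts. Members, gene lists and tests were chosen with earlier results of these data known. Named were, per class, up to 2 called members with the highest and up to 2 with the lowest log2 fold change (groups not overlapping, mean of at least 1 CPM), the member with the highest mean TPM, members with a Bradi ID, and *BdMUTE* and *BdFAMA*. BdiBd21-3.1G0260200, BdiBd21-3.1G0011600, BdiBd21-3.2G0269500, BdiBd21-3.2G0267900, BdiBd21-3.1G0108600, BdiBd21-3.1G0044700 and BdiBd21-3.1G0175200 were added after their values were seen. Of the member IDs, 0 matched the RefSeq table at hand. As alternatives, RLE scaling or library size alone, 2 other count filters, a replicate block, DESeq2 1.42.0, limma 3.58.1 (voom, and trend on log2 TPM with pseudocounts of 0.1 and 1), and leaving out each library in turn were tried.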

Additional observations from a re-analysis of the deposited data

How the results depend on the processing

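Over all alternatives, the counts of *BdMUTE* and *BdFAMA* targets called higher stayed within 1.5 times those given. Scaling moved the medians. The median log2 fold changes of the *BdMUTE* and *BdFAMA* targets were 0.96 and 1.09 with library size as the only scaling (all-gene median 0.42), 0.88 and 0.99 on log2(TPM + 0.1) (0.31), and 0.71 and 0.94 on log2(TPM + 1) (0.25). Relative to the all-gene median, they stood 0.54 and 0.67 above it with library size only, as in the values reported. RLE normalization gave a *BdFAMA* median of 0.64. With library size only, 57 of 63 calls were kept and 2 turned, 4 *BdFAMA* targets were called lower, and the uncalled BdiBd21-3.1G0120400 turned to 0.072 (adjusted p = 0.641). With at least 10 counts in every library, the *BdMUTE* median was 0.46 and 1 target lay beyond a log2 fold change of 3, because the 3 targets above 3 were no longer tested. Leaving out each library in turn gave 25 to 29 *BdMUTE* targets higher and 6 to 10 lower (median 0.50 to 0.74), 15 to 18 *BdFAMA* targets higher and 6 to 7 lower (median 0.66 to 0.77), and 3 to 4 targets beyond 3.

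Same-numbered libraries of the 2 groups deviated together with correlations of 0.14, 0.05 and 0.10, and 5 of 6 libraries correlated best with their own number. These correlations were small but positive, so that they give no ground against pairs. The main test did not use the numbers as pairs, and a fit with a replicate block was run as an alternative. With the replicate block, 46 targets were higher and 16 lower, and 62 of 63 calls were kept. In the smallest library 3 counts equalled 0.205 CPM, so that the fold changes of targets with few counts in the libraries labelled non-protoplasted are less certain than the others.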

Other observations

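Within the libraries labelled protoplasted, replicate 1 was the highest of its group in 28 of 50 *BdMUTE* targets (56.0%), and in 40.8% of all genes tested. Within those labelled non-protoplasted, replicate 2 was the highest in 29 of 50 *BdMUTE* targets (58.0%), against 35.4% of all genes, and replicate 1 was the highest in 16 of 28 *BdFAMA* targets (57.1%), against 37.7%.

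Near neighbours among the targets, with at most 5 genes between them, formed 10 pairs, of which 5 had log2 fold changes of the same sign and 5 of opposite sign. The signs of called and uncalled members were counted alike, and the sign of an uncalled member is uncertain. Among the pairs of the same sign, BdiBd21-3.2G0134400, a *BdMUTE* exclusive target, and BdiBd21-3.2G0134700, a *BdFAMA* preferred target, had 2 genes between them and log2 fold changes of 1.70 and 2.07. Among those of opposite sign, BdiBd21-3.1G0225300, a *BdMUTE* preferred target, and BdiBd21-3.1G0225800, a *BdMUTE* exclusive target, had 4 genes between them and log2 fold changes of 0.65 and -2.11. These 2 pairs were chosen after their values were seen.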
